A study of Drosophila melanogaster with 5 samples.

Results

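In a list of MSL2 binding peaks on the Drosophila X chromosome, 289 peaks had a high number in their name and lay close to a peak with a low number. These adjacent peaks were chosen by the number at the end of the peak name and by the distance between peaks. A peak was taken when its number was above 300 and its midpoint lay at most 20000 bp from the midpoint of a peak numbered 300 or lower. The whole list holds 709 peaks, all on X. Of these, 216 were low-numbered and 493 high-numbered, and the 289 adjacent peaks were 58.6% of the high-numbered ones and 40.8% of the list. The other 204 high-numbered peaks are called far peaks here.

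The list comes from CUT&RUN, an assay in which a nuclease tethered to an antibody releases the DNA around the bound protein for sequencing. The cells were S2, a long-established line from Drosophila melanogaster embryos in which the male form of dosage compensation is active, and the labels name no further treatment for either group. The labels give 3 libraries with rabbit serum against MSL2 and 2 control libraries, whose target is written as PPI and for which the protocol names pre-immune serum. The authors called 1 peak list from 7890306 anti-MSL2 tags against a control, and each peak is 151 bp wide. The list holds no value per library, so no value below has a replicate error, and the peaks' signal over the control was not analysed here.

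MSL2 is the subunit that makes the MSL (male-specific lethal) complex male-specific. The complex also contains the roX noncoding RNAs and the acetyltransferase MOF. It is known to bind X first at a limited set of high-affinity sites, often rich in GA sequence, and to reach active genes around them, where a histone H4 lysine is acetylated and transcription is raised. Whether the low-numbered peaks are high-affinity sites was not tested, and the header does not say what the number stands for. Across the list the number followed the place in the list closely (Spearman's rho 0.998 over 709 peaks, a description).

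The numbers of the adjacent peaks ran from 301 to 3179, with a median of 596 and quartiles of 430 and 859. The far peaks ran from 304 to 3598 with a median of 893. A number above 1000 was carried by 50 adjacent peaks (17.3%) and by 82 far peaks (40.2%). Read the other way, the adjacent peaks made up 147 of 208 high-numbered peaks with numbers up to 600 (70.7%) and 77 of 121 with numbers from 601 to 900 (63.6%). Their share was 49 of 102 above that and up to 1500 (48.0%), and 16 of 62 beyond 1500 (25.8%). High-numbered peaks with the lower numbers were therefore more often near a low-numbered peak than those with the highest numbers. Because number and distance both entered the choice, these values describe the list and were not tested.

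The distance from an adjacent peak to its nearest low-numbered peak had a median of 6840 bp, with quartiles of 3902 and 11049 bp and a range of 394 to 19950 bp. Within 1000 bp of a low-numbered peak lay 19 adjacent peaks (6.57%), within 5000 bp 94 (32.5%) and within 10000 bp 203 (70.2%). The nearest low-numbered peak was on the side of higher coordinates for 151 adjacent peaks and of lower coordinates for 138. A single low-numbered peak was within 20000 bp of 168 adjacent peaks, while 121 had 2 or more and 2 peaks had 5. Where several low-numbered peaks lie together, the same adjacent peaks count for each of them.

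Density gives the same distances per length of chromosome. The stretches within 20000 bp of a low-numbered peak covered 5.93 Mb, or 25.2% of X up to its last annotated gene, and held 48.7 adjacent peaks per Mb. The remaining 17.6 Mb held 11.6 far peaks per Mb. The density was 46.3 per Mb within 1 kb of a low-numbered peak, 62.6 per Mb at 1 to 2 kb, 47.0 per Mb at 2 to 5 kb and 70.8 per Mb at 5 to 10 kb. The first band includes the 300 bp around each low-numbered peak in which the header's minimum distance allows no other peak. Further out the density was 39.2 per Mb at 10 to 15 kb and 28.7 per Mb at 15 to 20 kb. Beyond the limit of the rule it was 21.8 per Mb at 20 to 40 kb and 8.31 per Mb at 40 to 80 kb. The density thus had no steady order within 10 kb, where the band at 5 to 10 kb had the highest value, and it was lowest beyond 40 kb.

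**Figure D1:**
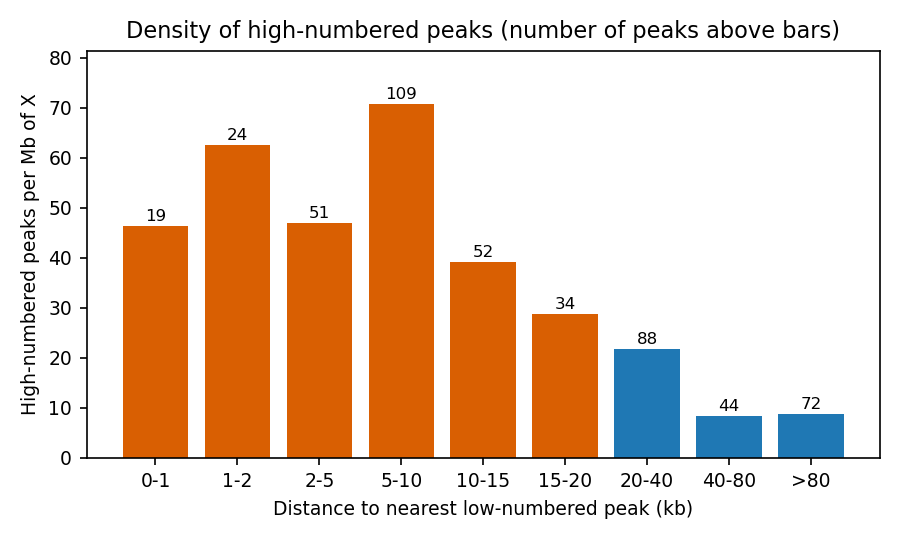
Number of high-numbered peaks per Mb of X (vertical axis) in bands of distance to the nearest low-numbered peak (horizontal axis, kb); the number above each bar is the count of peaks, with adjacent peaks in orange and far peaks in blue. The bar at 5 to 10 kb is the tallest, with 109 peaks at 70.8 per Mb, and the bars beyond 40 kb stay below 10 per Mb.

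The number of an adjacent peak also varied with its distance. Of the 94 adjacent peaks within 5000 bp of a low-numbered peak, 3 (3.19%) had a number above 1000, and their median number was 468. Of the 195 at 5000 to 20000 bp, 47 (24.1%) did, with a median of 700. The 3 exceptions lay in sw, which encodes a dynein intermediate chain (number 1016, at 578 bp), in Cbp80, a subunit of the nuclear cap-binding complex (number 1479, at 1686 bp), and in ssx, an RNA-binding protein gene (number 1018, at 4278 bp). They were chosen after their values were seen. Over all 289 adjacent peaks, number and distance had a Spearman's rho of 0.33, as a description across sites that share 1 list. According to the header, a peak had to exceed a surrounding region of 10000 bp 4-fold, and 474 putative peaks were removed by that requirement. Its part in the scarcity of high numbers within 5000 bp was not tested. Nor was its part in the density there, which was lower in each band than at 5000 to 10000 bp. That density was still higher in each band than in any band beyond 10000 bp.

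**Figure D2:**
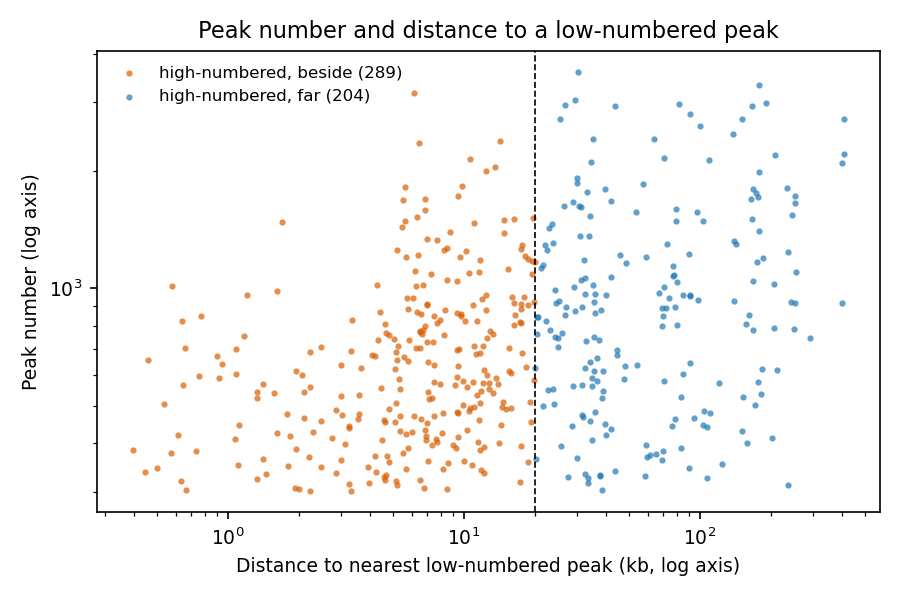
Peak number (vertical log axis) against the distance to the nearest low-numbered peak (horizontal log axis, kb) for the 289 adjacent peaks (orange) and the 204 far peaks (blue), 1 point per peak. The dashed line is the 20 kb limit of the rule; few points above 1000 lie to the left of 5 kb, where 3 of 94 adjacent peaks have such a number.

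At the limits of the rule there was no gap in the values. The adjacent peaks just inside the distance limit lay at 19950 bp, in Rpt3, a proteasome ATPase gene, at 19864 bp, in Imp, an mRNA-binding protein gene, and at 19729 bp, 51 bp from l(1)G0320. The far peaks just outside it lay at 20032 bp, 238 bp from Hexo2, at 20244 bp, in l(1)G0320, and at 20466 bp, in HisRS and Bx. The limit therefore separates peaks at the same gene, l(1)G0320, into an adjacent and a far one. The last low-numbered peaks were 297 in MKP-4, 298 in Usp2 and 300 in dome, and the lowest adjacent numbers began at 301.

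The 5 adjacent peaks with the lowest numbers were spread over X. Number 301 lay at the end of asRNA:CR43864, with a low-numbered peak 2231 bp away in Edem1, which acts in the degradation of misfolded proteins of the endoplasmic reticulum. Number 302 lay in His3.3B, a gene for the replacement histone H3.3, and number 303 lay in nej, the gene of the acetyltransferase CBP. Number 305 was 82 bp from CR46425, and its low-numbered neighbour was 1989 bp away in su(f), which encodes an mRNA 3′ end processing factor. Number 306 lay in Tango5.

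At the other extreme, the peak with the highest number, 3179, was 531 bp from CG14770 and 6153 bp from a low-numbered peak in ssx. Number 2388 was 72 bp from opm. Number 2355 lay where raptor, a gene of the TORC1 growth-control complex, overlaps Mipp2. Number 2145 was 36 bp from betaCOP, a gene of the COPI vesicle coat, and number 2047 lay in CG32813. The 5 lay 6153 to 14253 bp from a low-numbered peak, so none was within 5000 bp of one.

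The closest neighbours lay mostly within the same gene. Number 385 (X 11818384 to 11818534, dm6) was 394 bp from low-numbered peak 234, both inside rudhira, the fly counterpart of the cytoskeletal gene BCAS3. Number 338 (X 2626598 to 2626748) was 446 bp from peak 125 in Pi4KIIIalpha, a phosphatidylinositol kinase gene, and number 654 (X 20159617 to 20159767) was 459 bp from peak 189 in Rab35, a membrane-traffic GTPase gene. Number 346 (X 21035421 to 21035571) was 501 bp from peak 288 in Ntf-2, a nuclear transport factor gene. Number 504 (X 17077859 to 17078009) was 537 bp from peak 287, which lay inside wcy, while number 504 itself was 37 bp outside that gene. The minimum distance between peaks in the header was 300 bp, so no closer pair than that could be listed.

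Beyond the closest pairs, most adjacent peaks were not in the gene of their low-numbered neighbour. The midpoint was in the same gene as the nearest low-numbered peak for 82 adjacent peaks (28.4%), in another gene for 124 (42.9%) and outside genes for 83 (28.7%). Counting any low-numbered peak rather than the nearest, 89 (30.8%) were in the gene of one. Of the 207 that did not share a gene with the nearest low-numbered peak, 56 had no whole protein-coding gene between the peaks. A single such gene lay between in 51 cases, 2 in 49 and 3 or more in 51, with a maximum of 8. Peaks in a shared gene were a median of 3938 bp from the low-numbered peak, and those in another gene a median of 9274 bp.

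The position relative to genes is not part of the rule, and was compared between the sets. A difference between early and late peaks of the list was already known for the shares inside genes and near gene ends. The comparisons with low-numbered peaks are therefore not independent support of that difference. A gene end here is either limit of an annotated gene, since the gene table carries no strand and starts and 3′ ends could not be told apart. The midpoint lay within 500 bp of a gene end in 182 of 289 adjacent peaks (63.0%, 95% Wilson interval 57.3% to 68.3%). Among low-numbered peaks it did so in 103 of 216 (47.7%, 41.1% to 54.3%). The difference of 15.3 percentage points had a 95% interval of 6.54 to 23.8 (Fisher's exact test, two-sided, adjusted p = 0.00155 over 4 comparisons). Among far peaks the share was 116 of 204 (56.9%). There the difference of 6.11 points did not pass the threshold of 0.05 (Fisher's exact test, adjusted p = 0.254), and its interval of -2.62 to 14.8 leaves room for either direction. Within 1000 bp of a gene end the adjacent peaks exceeded the far peaks by 10.2 points (77.9% against 67.6%, Fisher's exact test, adjusted p = 0.0256), so that comparison depends on the distance taken. Intervals and tests treat peaks as independent although peaks cluster, and they describe this list alone.

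Within 100 bp of a gene end lay 114 adjacent peaks (39.4%), 43 low-numbered peaks (19.9%) and 65 far peaks (31.9%). At this distance the adjacent peaks exceeded the low-numbered ones by 19.5 points (Fisher's exact test, adjusted p = 1.09e-05), while the 7.58 points over far peaks did not pass the threshold (Fisher's exact test, adjusted p = 0.117). Adjacent peaks had a median distance to the nearest gene end of 213 bp (95% interval of the median 140 to 344 bp). The median was 538 bp for low-numbered peaks (404 to 637 bp) and 377 bp for far peaks (190 to 507 bp). Of the adjacent peaks, 184 (63.7%) were nearer to a gene end than their own low-numbered neighbour was. This count follows in part from the difference between the medians and is not a separate result. A low-numbered peak with several adjacent peaks enters it more than once, and the share for far peaks was not computed.

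**Figure D3:**
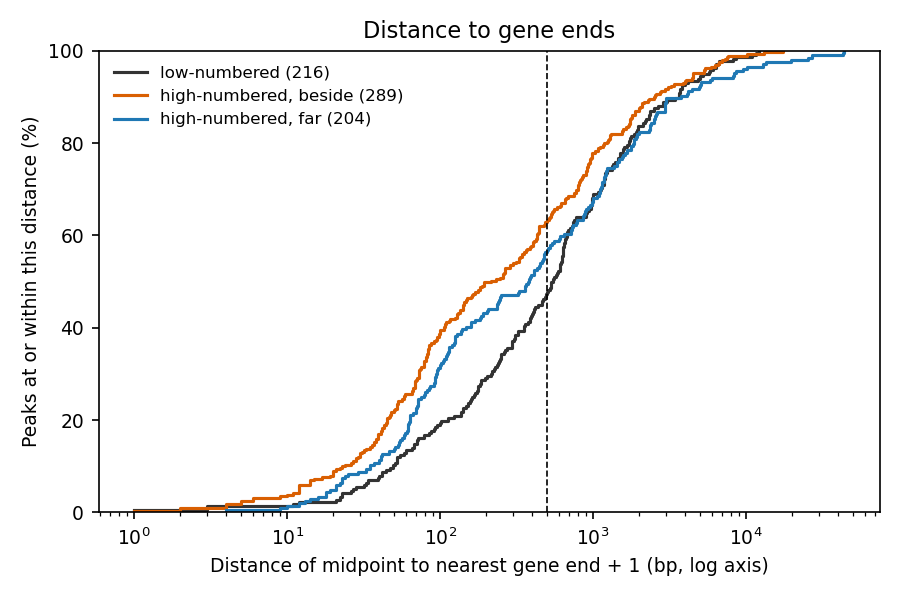
Share of peaks (vertical axis, %) at or within a given distance of the nearest gene end (horizontal log axis, bp, with 1 added) for low-numbered (black), adjacent (orange) and far (blue) peaks; the dashed line marks 500 bp. At 500 bp the curves stand at 47.7%, 63.0% and 56.9%, and they come closer at 2000 bp, with 83.8%, 87.2% and 82.4%.

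Fewer adjacent than low-numbered peaks lay inside genes, a comparison with the same limit that an early-to-late difference was already known. The midpoint was inside a gene in 206 adjacent peaks (71.3%, 95% Wilson interval 65.8% to 76.2%) and in 188 low-numbered peaks (87.0%, 81.9% to 90.9%). The difference of -15.8 points had an interval of -22.4 to -8.65 (Fisher's exact test, adjusted p = 8.11e-05). The far peaks, with 150 inside genes (73.5%), did not differ from the adjacent peaks beyond the threshold (difference -2.25 points, interval -10.1 to 5.86, Fisher's exact test, adjusted p = 0.611). Counting any peak that overlapped a gene by 1 bp or more, 85.8% of adjacent and 93.1% of low-numbered peaks touched a gene, a smaller difference of -7.24 points (Fisher's exact test, adjusted p = 0.0202). The lower share inside genes and the higher share at gene ends are related measures, since peaks just outside a gene are close to its end.

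Peaks outside genes lay in short gaps in all sets. For the 83 adjacent peaks outside genes, the gap between the flanking genes had a median of 511 bp and was at most 1000 bp long for 68 of them (81.9%). The gap had a median of 400 bp for the 28 low-numbered peaks outside genes, with 22 at most 1000 bp (78.6%), and of 487 bp for the 54 far peaks, with 39 at most 1000 bp (72.2%). The largest distance of an adjacent peak to a gene was 931 bp. Of the 83 adjacent peaks outside genes, 80 were within 500 bp of a gene end, and 68 were nearer to one than their low-numbered neighbour was. Any midpoint in a gap of at most 1000 bp is within 500 bp of a gene end, so the count of 80 follows largely from gap length. The count of peaks nearer to an end than their low-numbered neighbour follows from it in part. Inside genes, 36 of the 82 peaks that shared a gene with the nearest low-numbered peak were within 500 bp of an end (43.9%), as were 66 of the 124 in another gene (53.2%). At least 2 gene ends, of the same gene or of different genes, lay within 500 bp of 104 adjacent peaks (36.0%), of 60 low-numbered (27.8%) and of 63 far peaks (30.9%). None of these shares was tested.

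In all, 169 genes held the midpoint of an adjacent peak, of which 161 were protein-coding, 4 antisense RNA genes, 3 lncRNA genes and 1 another ncRNA gene. A low-numbered peak was also present in 66 of them and absent from 103. The genes with both had a median length of 9052 bp and those without a low-numbered peak a median of 3959 bp. For all 2197 protein-coding genes of X the median was 2520 bp. A longer gene can hold more peaks of any kind. There were 43 genes with 2 or more adjacent peaks, 22 of them with a low-numbered peak and 21 without. No gene held more than 3, and 7 genes held 3.

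Of these 7 genes, nej and rudhira each combined 3 adjacent with 3 low-numbered peaks. In nej (gene 43856), 21625 bp long, number 303 lay between low-numbered peaks 139 and 69 near the end with the higher coordinate. Number 447 was 1115 bp from low-numbered peak 174 near the other end, and number 886 was 5777 bp from it, further inside the gene. In rudhira (gene 32136), 20563 bp long, numbers 419 and 385 alternated with low-numbered peaks 228 and 234 within 2 kb of the end with the lower coordinate. Number 464 was 2100 bp from low-numbered peak 65 in the middle of the gene. In both genes adjacent peaks were interspersed with low-numbered ones and did not form a separate block.

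Tomosyn and Sec16 had their adjacent peaks at one end and in the gene body. Tomosyn (gene 32217) encodes a regulator of synaptic vesicle release. Its number 709 was 37 bp from the end with the lower coordinate, and numbers 308 and 347 lay between low-numbered peaks 109 and 182. In Sec16 (gene 32209), which organises the exit sites of the endoplasmic reticulum, numbers 701 and 667 were 72 and 794 bp from the end with the lower coordinate. Number 601 was 1084 bp from the 1 low-numbered peak of the gene, 290.

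The other 3 genes held no low-numbered peak. In su(sable) (gene 31012), which encodes an RNA-binding protein that limits the build-up of some transcripts, numbers 628, 681 and 319 lay 182, 898 and 1285 bp from the end with the lower coordinate. Their low-numbered neighbour, peak 100 in Hmt4-20, was 17195 to 18298 bp away. In csw (gene 45278), the gene of a tyrosine phosphatase in receptor signalling, number 917 was 344 bp from one end, and numbers 395 and 1087 lay 2757 and 981 bp from the other. In Dlic (gene 32057), which encodes a dynein light intermediate chain, numbers 1047 and 577 were 45 and 653 bp from one end and number 455 was 312 bp from the other. In Dlic and csw, adjacent peaks thus lay towards both ends of the gene.

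**Figure D4:**
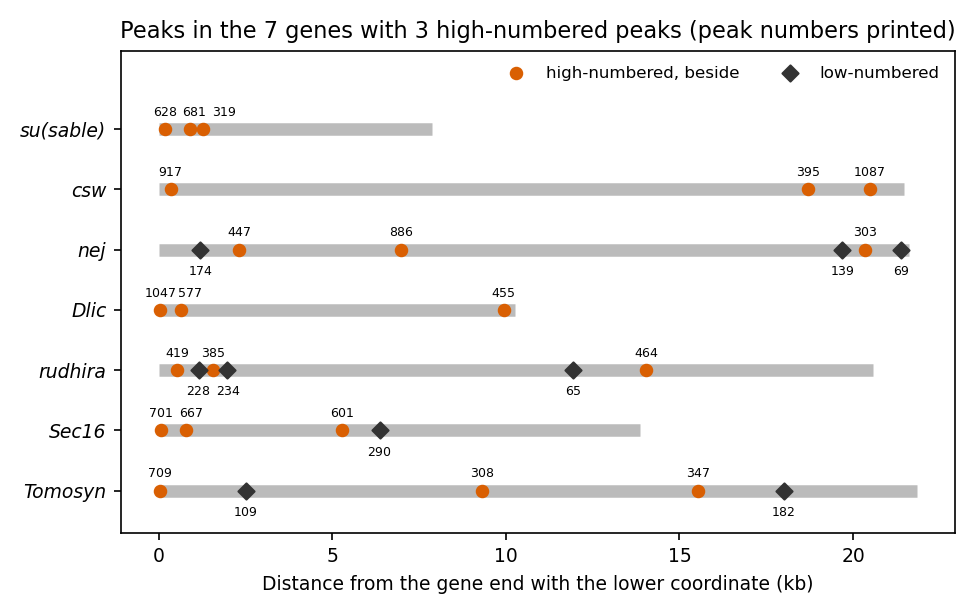
Position of adjacent peaks (orange circles) and low-numbered peaks (black diamonds) in the 7 genes with 3 adjacent peaks; each grey bar is a gene to scale, the horizontal axis is the distance from the gene end with the lower coordinate (kb), and peak numbers are printed. Low-numbered peaks lie among the adjacent ones in nej, rudhira and Tomosyn. In Sec16 the only low-numbered peak lies beyond all 3 adjacent peaks, seen from the end with the lower coordinate. In su(sable), csw and Dlic there is none.

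Of the 36 genes with 2 adjacent peaks, the first 3 along X were Hmt4-20, arm and CG11596. Hmt4-20 (gene 31015), a histone H4 methyltransferase gene, held low-numbered peak 100 and, at 735 and 1402 bp from it towards the end with the higher coordinate, numbers 382 and 364. In arm (gene 31151), the gene of the fly β-catenin, low-numbered peak 59 lay 2402 bp from the end with the lower coordinate. Numbers 327 and 317 lay 956 and 354 bp from the other end. In CG11596 (gene 31158), numbers 454 and 620 lay 11 and 478 bp from one end, and no low-numbered peak was present. Elsewhere, CG4025 held numbers 523 and 671 at 11 and 445 bp from its end, dx held numbers 623 and 352, and Trf4-1 held numbers 321 and 410; these 3 were named after their values were seen.

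Some of the lowest-numbered peaks of the list shared a gene with an adjacent peak. There were 15 peaks with a number of 50 or lower, 13 of them inside a gene. At least 1 adjacent peak lay within 20000 bp of 10 of the 15, and 4 genes held both kinds. Over all 216 low-numbered peaks, 188 of them inside a gene, 66 genes held both kinds. In dlg1, a scaffold gene of cell junctions and synapses, numbers 550 and 378 lay 5370 and 5491 bp on either side of peak 48. In fs(1)h, the gene of a bromodomain protein of the BET family, number 575 lay 7476 bp from peak 50. In Socs16D, a cytokine-signalling suppressor gene, number 470 lay 5329 bp from peak 47, and in norpA, the phospholipase C gene of phototransduction, number 1725 lay 9451 bp from peak 40. All 5 of these adjacent peaks were more than 5000 bp from the low-numbered one. Among all 289 adjacent peaks, 195 lay 5000 to 20000 bp from the nearest low-numbered peak.

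Over all 216 low-numbered peaks, 177 (81.9%) had an adjacent peak within 20000 bp and 39 had none, with a mean of 2.12 per low-numbered peak. The share was 36 of 50 for numbers up to 100 (72.0%), 69 of 85 for the next 100 numbers (81.2%) and 72 of 81 for the last 100 (88.9%). These counts follow from the choice of the adjacent peaks and were not tested.

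The genes of the roX RNAs, both with low-numbered peaks, differed in their surroundings. Near roX1, which held low-numbered peak 24, there was no adjacent or far peak within 20000 bp of the gene. Near roX2, which held 3 low-numbered peaks, there were 4 adjacent peaks. Number 394 was 70 bp from PGRP-SA, a bacterial recognition receptor gene, and 17518 bp from the nearest roX2 peak, number 63. Number 585 was in CG11696, 77 bp from its end and 5283 bp from that peak. Number 1486 was 140 bp from nod, a kinesin-like gene, at 5598 bp from peak 19, and number 1519 was in rho-4, a rhomboid protease gene, 36 bp from its end and 19582 bp from peak 19. None of the 4 was in roX2 itself. All 4 were within 250 bp of a gene end, as were 147 of all 289 adjacent peaks (50.9%). Of 11 listed genes of the MSL complex and its partners, 3 are on X; the third, mof, had 4 far peaks and no adjacent or low-numbered peak within 20000 bp.

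The most crowded neighbourhood was that of CG3198, named after its value was seen. Low-numbered peaks 91 and 175 in this gene each had the same 9 adjacent peaks within 20000 bp. Only number 377 was in CG3198 itself, 573 bp from peak 175. The others lay in or beside Cdc7, a replication kinase gene (numbers 335, 545 and 566), Ctr1A, a copper transporter gene (859), ND-ASHI, a respiratory complex I gene (1251), Fum1, a fumarase gene (1204), Pink1, a mitochondrial quality-control kinase gene (446), and CG44303 (884). Of the 9, 3 were within 500 bp of a gene end. Next came peak 129 in Ran, the gene of the nuclear transport GTPase, with 7 adjacent peaks, 3 of them in Dlic and the others at Rpt3, SrpRalpha, Klp10A and CDK2AP1. Of these 7, 5 were within 500 bp of a gene end, and up to 8 whole protein-coding genes lay between them and peak 129. Over all 289 adjacent peaks, 182 (63.0%) were within 500 bp of a gene end, and the neighbourhoods were not compared with that share.

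Along X, the adjacent peaks were unevenly spread, which follows in part from the rule, since each needs a low-numbered peak within 20000 bp. Per 1 Mb they numbered from 0 between 14 and 15 Mb, where 1 low-numbered and 9 far peaks lay, to 29 between 2 and 3 Mb, where 20 low-numbered and 4 far peaks lay. All high-numbered peaks beyond 22 Mb were adjacent, 5 between 22 and 23 Mb and 4 between 23 and 24 Mb. Adjacent peaks were 93.8% of the high-numbered peaks between 18 and 19 Mb. Their share was 22.2% in the first Mb, where 6 adjacent and 21 far peaks stood beside 2 low-numbered ones. The interval from 15 to 16 Mb held 11 adjacent and 24 far peaks with 9 low-numbered peaks.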

How the data were processed

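Per the submitters' processing notes, the tools named are Bowtie2 2.2.9, SAMtools 1.9 and HOMER 4.9, and the build is dm6. HOMER findPeaks made the list, per the file headers, from 1 anti-MSL2 and 1 control tag directory, at least 10-fold over the control and 4-fold over the surrounding 10000 bp, with at least 25 tags per peak; which libraries these directories hold is not stated. In the deposited list the score is a constant 1 and measures nothing. Of the numbers 1 to 300, 84 are not in the list, so the low-numbered set is not a full series.

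Adjacent peaks were selected by the rule given above. Coordinates are 1-based. Gene extents came from the RefSeq table of Release 6, the assembly of dm6, with 2705 genes on X. Shares of peaks inside genes and within 500 bp of gene ends were set against each other by a two-sided Fisher's exact test with Benjamini-Hochberg adjustment over 4 comparisons (Python 3.11.15, scipy 1.17.1), and differences carry Newcombe intervals at 95%. The code was tested on simulated peaks. Peaks are not replicates. The set of peaks, the gene lists and the tests were chosen with earlier results of these data known, among them a difference between early and late peaks of the list in both shares, so the comparison with low-numbered peaks is not independent support of it. Genes were named when they held 2 or more adjacent peaks (10 at most, by count and then position), or a low-numbered peak up to 50 with an adjacent peak, or the peaks extreme in number or distance. Alternatives were other limits of number and distance, other gene criteria and merging of close peaks.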

Additional observations from a re-analysis of the deposited data

How the results depend on the processing

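Of 36 alternative values, 32 kept the direction and side of the threshold, or stayed within 1.5 times a reported count or within the interval of the median. The lower share inside genes and the higher share near gene ends in adjacent against low-numbered peaks passed under all 7 alternatives each, counting peaks of a set within 5000 bp once among them, but became smaller under some. The difference inside genes was -7.24 points with an overlap of 1 bp, against -15.8 as reported. The difference near gene ends was 8.87 points within 1000 bp (Fisher's exact test, adjusted p = 0.0413), against 15.3 as reported. The difference from far peaks near gene ends did not pass as reported (6.11 points), and passed with 400 as the dividing number (10.8 points, Fisher's exact test, adjusted p = 0.0445) and with gene ends within 1000 bp (10.2 points). The difference from far peaks inside genes, never past the threshold, changed sign to 1.18 points with a limit of 10000 bp. With 200 as the dividing number the median distance to a low-numbered peak was 7550 bp. The cause was not tested in these cases.

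No paired analysis was possible because single libraries have no values in the deposited list, and for the same reason none was left out. The planned comparisons of gene starts and of GA-rich patterns were not run, since no strand and no sequence were used here. The depth behind a single peak is at least the 25 tags of the header and is otherwise unknown.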
